A study of Mus musculus with 12 samples.

Results

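The 51 genes described here encode the proteins that license and fire origins of DNA replication and copy the DNA: the origin recognition complex, the loaders and subunits of the MCM helicase, its activating kinase and partners, the sliding clamp and polymerases, the enzymes that supply nucleotides, and 3 proteins that rebuild chromatin behind the fork. They are a list of gene symbols of this pathway, given by name. All 51 were found among the 25867 genes with a symbol in the deposited tables, and all 51 passed the filter on low counts, as 18670 genes did in all.

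RNA was sequenced from sorted thymic epithelial cells (TECs), the stromal cells of the thymus that support and select developing T cells, in 12 libraries of 4 groups of 3. All cultures were fetal thymic organ cultures of C57BL/6 embryos, begun at E15.5 (days of embryonic age), held for 4 to 5 days in 1.35 mM 2'-deoxyguanosine, which kills thymocytes, and then for 3 days with an agonist antibody to RANK at 10 µg/mL, which induces AIRE in medullary TECs. The Kat7 knockout (KO) cultures carried Rosa Cre-ERT2 and floxed Kat7 (Kat7 fl/fl) and received tamoxifen, and the control cultures received tamoxifen too. The WM-3835 cultures were wild type and received WM-3835, an inhibitor of the acetyltransferase KAT7, while the DMSO cultures were wild type and received the solvent. Not given in the labels are the genotype of the control cultures, the dose and duration of the inhibitor, or how many embryos entered a library. The titles spell the compound WM-3825 and the treatment field WM-3835, which is the name used here. The Rosa locus is active in most cell types, so this Cre is not limited to TECs. The design text calls the 3 libraries of a group biological replicates.

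Origins are licensed when the origin recognition complex, CDC6 and CDT1 load MCM2-7 as an inactive double ring, and geminin blocks further loading by binding CDT1. In S phase the kinase CDC7 with DBF4 acts on the loaded rings, CDC45 and the GINS complex join them, and the active helicase opens DNA for the polymerases. KAT7, also called HBO1, is a histone acetyltransferase first found as a binding partner of ORC1 and known in other cells to act with CDT1 at origins. Many genes of this pathway are known targets of E2F transcription factors, which switch them on as cells enter S phase.

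Promoters of 5 members show where E2F words stand in these genes: Mcm2, Mcm5 and Mcm6, helicase subunits that were higher with WM-3835, Uhrf1, the member lower in the KO, and Cdc7, higher in both comparisons. The sequences are from RefSeq on GRCm38.p6, read 5′ to 3′ on the gene's strand, and begin 200 bases before the outermost transcript start given there. Each was cut where needed to lie outside the RefSeq gene and outside every exon in the GENCODE M21 annotation, which left 159 to 200 bases. Capitals mark E2F words, here TTTCCCGC, TTTCGCGC, TTTGCCGC and TTTGGCGC, searched on both strands and allowed to overlap. The stretches are chr6:88898781-88898980 on the minus strand for Mcm2, chr8:75109309-75109467 on the plus strand for Mcm5, chr1:128359706-128359905 on the minus strand for Mcm6, chr17:56303137-56303320 on the plus strand for Uhrf1 and chr5:106964122-106964314 on the plus strand for Cdc7.
Mcm2: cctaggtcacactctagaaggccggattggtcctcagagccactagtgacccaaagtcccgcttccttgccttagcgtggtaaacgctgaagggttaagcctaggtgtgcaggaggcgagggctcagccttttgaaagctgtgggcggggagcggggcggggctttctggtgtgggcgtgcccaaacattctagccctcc
Mcm5: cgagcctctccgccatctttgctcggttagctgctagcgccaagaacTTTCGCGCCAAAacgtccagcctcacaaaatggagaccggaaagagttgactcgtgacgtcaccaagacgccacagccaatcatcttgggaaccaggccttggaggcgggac
Mcm6: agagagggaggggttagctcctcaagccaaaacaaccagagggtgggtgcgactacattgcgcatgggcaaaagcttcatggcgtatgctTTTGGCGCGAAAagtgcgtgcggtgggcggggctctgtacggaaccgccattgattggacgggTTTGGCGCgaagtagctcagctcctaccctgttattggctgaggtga
Uhrf1: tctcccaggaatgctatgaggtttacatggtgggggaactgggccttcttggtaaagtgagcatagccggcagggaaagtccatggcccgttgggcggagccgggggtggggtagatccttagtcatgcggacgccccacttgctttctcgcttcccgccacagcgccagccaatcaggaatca
Cdc7: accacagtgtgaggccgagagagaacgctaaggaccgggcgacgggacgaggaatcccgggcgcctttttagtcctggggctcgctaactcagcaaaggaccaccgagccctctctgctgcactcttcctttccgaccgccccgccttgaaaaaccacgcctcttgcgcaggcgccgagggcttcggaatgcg
Counting from the start as position 0, Mcm5 held overlapping words on opposite strands with first bases at -153 and -149. Mcm6 held such an overlapping pair at -110 and -106 and another word at -47. The stretches of Mcm2, Uhrf1 and Cdc7 held none of these letters, while a window at another start inside Uhrf1 held 1 word at -185.

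Over windows from 250 bases before to 50 after the start, 43 of the 51 members had an entry, and 17 of the 43 (39.5%) held an E2F word, against 563 of the 14096 tested genes with an entry (3.99%). An E2F word was in 7 of 17 members that were higher with WM-3835 (41.2%) and in 10 of 26 members not called there (38.5%). Among MCM2-7, 4 of the 5 members with an entry held one. The CCAAT word, searched on both strands in the same windows, was in 26 of 43 members (60.5%) and in 42.1% of the tested genes with an entry. A word describes the letters and is not a measured binding site, and base composition was not matched between these groups of promoters.

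**Figure D1:**
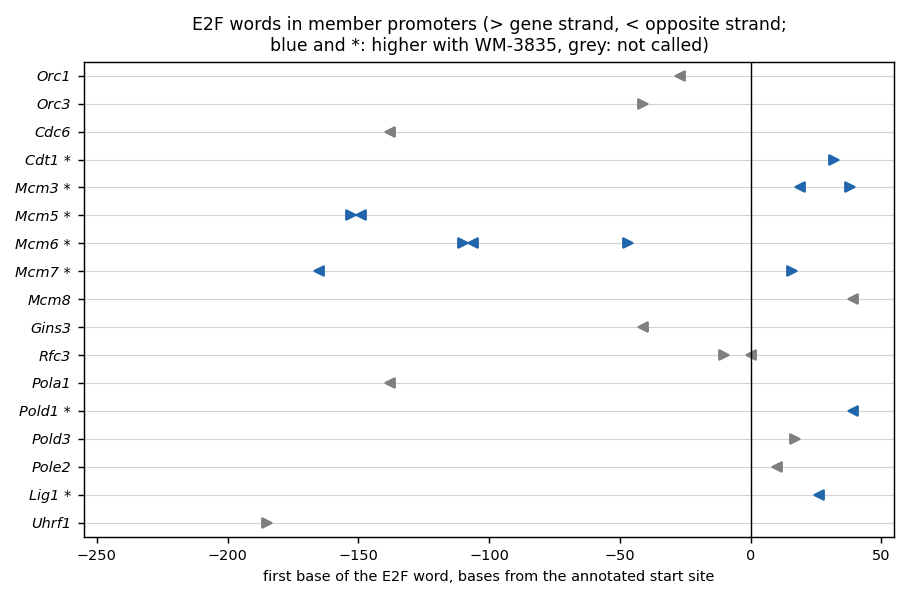
Position of each E2F word in the 17 member promoters that hold one, in bases from the annotated transcript start (vertical line); right-pointing marks are on the gene's strand, left-pointing marks on the opposite strand. Blue marks and asterisks show the 7 members higher with WM-3835, grey marks the 10 not called; both kinds lie before and after the start.

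Total counts were 26656847 to 52368012 per library, and each member had from 41 counts (Orc1) to 5217 counts (Pold1) in a library. Kat7 was at 0.606, 0.810 and 0.869 CPM (counts scaled by library total and TMM factor) in KO libraries, against 89.0, 76.5 and 76.0 CPM in control libraries (log2 fold change -6.74, SE 0.13, adjusted p = 1.31e-16). It was at 98.5, 100.4 and 99.3 CPM in WM-3835 libraries, against 88.4, 84.6 and 88.9 CPM in DMSO libraries, and was not called there (log2 fold change 0.19, adjusted p = 0.159). All 12 TEC markers were above 1 CPM in every library, with a sum of 9879 to 10184 CPM in KO, 9857 to 10984 CPM in control, 6640 to 7500 CPM in WM-3835 and 8005 to 9538 CPM in DMSO libraries. Thymocyte markers summed to 17.5 to 28.1 CPM over 14 genes in KO, 32.4 to 39.9 CPM in control, 14.9 to 17.6 CPM in WM-3835 and 18.1 to 22.3 CPM in DMSO libraries, and Rag2 was at 0 in all 12. Fibroblast markers summed to 62.5 to 85.4 CPM over 8 genes in KO, 127 to 197 CPM in control, 51.9 to 65.6 CPM in WM-3835 and 58.0 to 75.6 CPM in DMSO libraries. The ribosomal RNA gene Rn45s set control library 1 apart: it was at 1774 to 2018 CPM in KO libraries, against 6753, 2383 and 2609 CPM in control libraries (log2 fold change -1.03, adjusted p = 0.0122), and at 1649 to 2232 CPM in WM-3835 and DMSO libraries. Xist, the RNA of the inactive X chromosome, set KO library 3 apart from the other KO libraries: it was at 1709, 1191 and 4.94 CPM in KO libraries 1, 2 and 3, at 2.34 to 3.17 CPM in control libraries and at 846 or more CPM in every WM-3835 and DMSO library. Replicate spread differed too, with a biological coefficient of variation of 0.294 in KO, 0.47 in control, 0.125 in WM-3835 and 0.103 in DMSO libraries.

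Corrected for gene length (mean CPM per kb over all 12 libraries), the members spanned 0.898 to 36.9 CPM per kb. The highest levels were those of Rfc2, a clamp loader subunit, at 36.9 CPM per kb, Pcna, the sliding clamp, at 36.6, Pold1, the catalytic subunit of polymerase delta, at 26.3, and Mcm7 and Mcm6 at 25.2 and 22.7. The lowest were Orc1, the largest subunit of the origin recognition complex, at 0.898 CPM per kb, Cdc6 at 1.01 and Tyms, thymidylate synthase, at 1.84. Rfc2 stood at percentile 87.2 of the tested genes and Orc1 at percentile 23.5. The median coefficient of variation of a member between libraries of a group was 12.9% in KO, 18% in control, 7.86% in WM-3835 and 8.54% in DMSO.

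**Figure D2:**
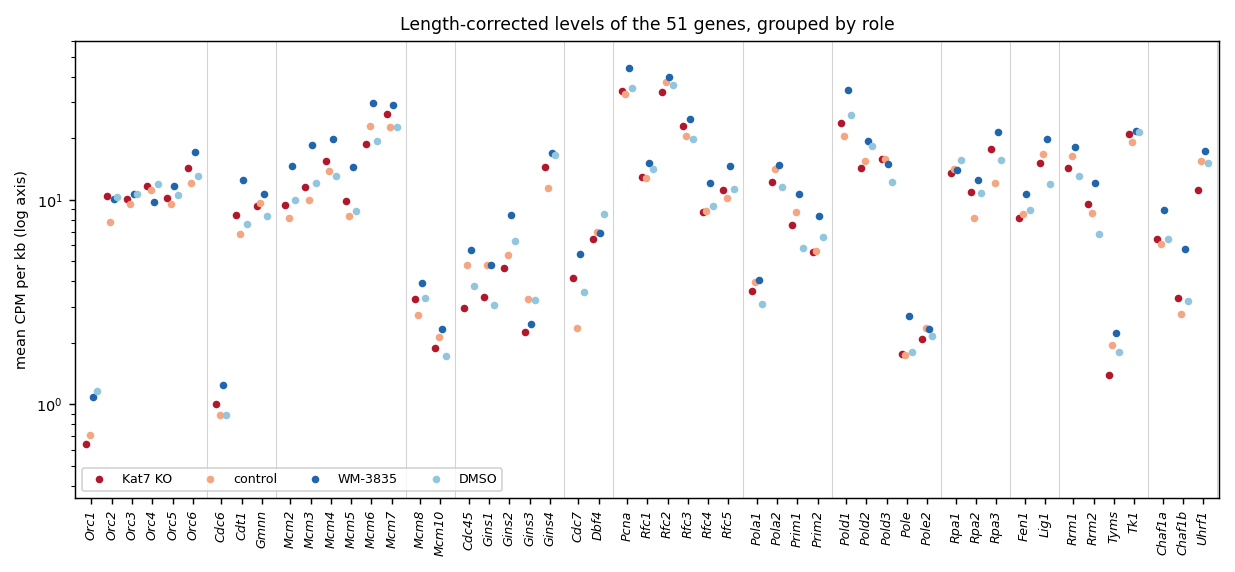
Mean level of each of the 51 genes in CPM per kb (log axis), grouped by role from origin recognition (left) to chromatin assembly (right), with a point for each group of 3 libraries. Levels differ far more between genes, with means over all libraries of 0.898 for Orc1 and 36.9 for Rfc2, than between groups.

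Deletion of Kat7 left most of the pathway without a call. With edgeR's quasi-likelihood test and Benjamini-Hochberg adjustment over all 18670 genes, 2 members rose in KO libraries against control (Orc2 and Cdc7), 1 fell (Uhrf1) and 48 were not called at an adjusted p under 0.05. Of all genes tested, 6.12% rose and 8.06% fell (14.2% in either direction), so most of them were not called either. The 3.92% of members that rose was 2 genes, and its difference from that background was not tested. The median member log2 fold change was 0.02, beside -0.01 over all genes tested, with 27 members above 0 and 24 below. At an unadjusted p under 0.05, 6 members were higher and 4 lower, beside 2435 higher and 2734 lower of all 18670. The lower Rn45s and fibroblast marker levels of KO libraries and the split of KO libraries by Xist stand beside these counts, and their part was not tested beyond the fits named here. In bulk RNA such as this, fewer cells of a type and less RNA per cell cannot be told apart. The calls rested on few libraries: 4 rose without control replicate 2, 2 fell without control replicate 1, and none fell without control replicate 3. Only 1 rose without KO replicate 2 (Cdc7) or KO replicate 3 (Orc2). With the Xist level as a covariate 1 rose and none fell. Apart from KO library 3, Xist separated KO from control libraries, so that fit cannot separate Xist from the KO effect. Fitted on the 6 libraries of these groups alone, or with quality weights per group in limma-voom, no member was called, and DESeq2 called 4 higher (with Rpa2 and Rpa3) and 2 lower (with Cdc45).

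With the inhibitor, every member that passed the edgeR test was higher. With WM-3835 against DMSO, 18 members rose (35.3%), none fell and 33 were not called, where 9.34% of all genes tested rose and 9.35% fell (18.7% in either direction). At an unadjusted p under 0.05 the edgeR test had 23 members higher and 0 lower, beside 2790 higher and 2781 lower of all 18670, DESeq2 and limma-voom called 0 lower, and limma-voom with quality weights per group called 2 lower (Orc4 and Gins3) and 30 higher. The median member log2 fold change was 0.37, beside -0.01 over all genes tested, and 44 of 51 members were above 0. Folds of the 18 ran from 1.25 to 1.83. In all 18 every WM-3835 library was above every DMSO library, as it was in 13 of the other 33. The 18 were called on these same libraries, and the share of all genes tested that were so separated was not counted. Summed over the 51 members, the level was 1725 ± 46.4 CPM in WM-3835 and 1381 ± 25.3 CPM in DMSO libraries (SD, n = 3 each), while it was 1376 ± 49.7 CPM in KO and 1355 ± 82.5 CPM in control libraries. The number called with WM-3835 depended on single libraries, falling to 11 without DMSO replicate 1, 10 without DMSO replicate 3, 12 without WM-3835 replicate 1 and 11 without WM-3835 replicate 2. The calls of Cdt1, Mcm2, Mcm3, Mcm4, Mcm5, Mcm6, Prim1, Pold1 and Lig1 held in all 21 alternatives.

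**Figure D3:**
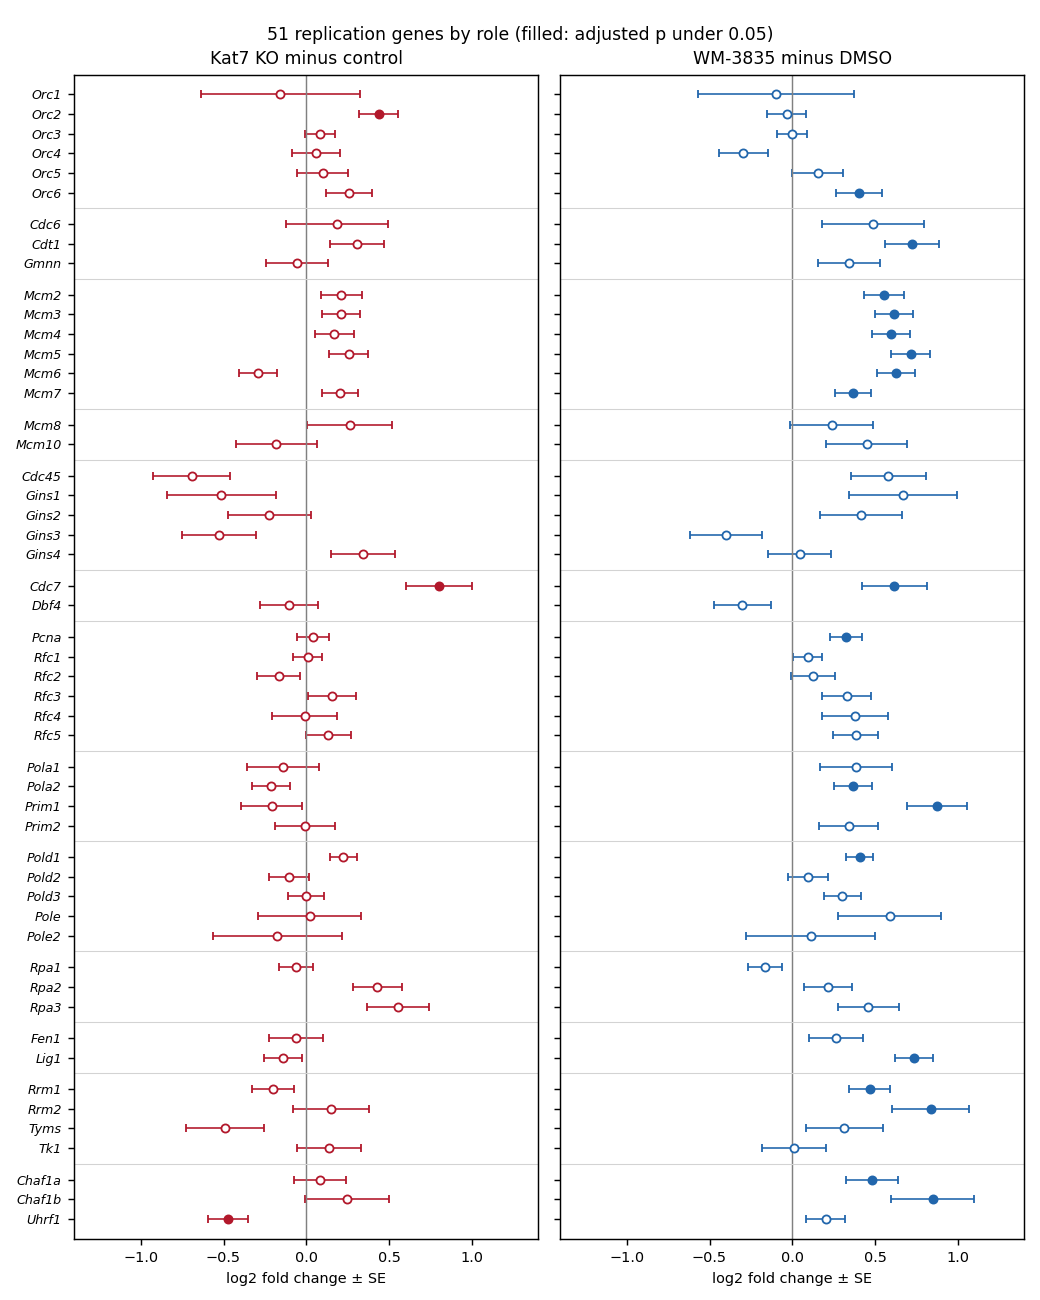
Log2 fold change with its SE for each member, ordered by role, in Kat7 KO minus control (left) and WM-3835 minus DMSO (right); filled points have an adjusted p under 0.05. Filled points are 3 on the left, on both sides of 0, and 18 on the right, all above 0.

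The proliferation gene Mki67, which marks cycling cells and is no member, moved with this result. Mki67 was at 125, 138 and 128 CPM in WM-3835 libraries, against 88.5, 99.9 and 92.5 CPM in DMSO libraries (log2 fold change 0.48, adjusted p = 0.0416), a call lost in 10 of 21 alternatives. In KO libraries it was at 64.5, 90.01 and 90.05 CPM, against 70.2, 98.7 and 130.4 CPM in control libraries (-0.29, adjusted p = 0.251), and its groups overlapped. Several TEC markers also differed with WM-3835. Psmb11, Foxn1, Pax1, Aire, Krt5 and Pax9 were lower, with log2 fold changes of -1.26, -0.42, -0.61, -1.11, -0.23 and -0.23. Epcam, Cldn3 and Cldn4 were higher, with 0.51, 1.10 and 0.61. In the KO, the TEC markers Krt14, Cd80 and Aire were called lower against control, at -1.34, -0.55 and -0.24 log2. Markers of other cells moved in both directions. Pdgfra, a fibroblast marker, was at 21.6, 19.5 and 14.3 CPM with WM-3835, against 0.983, 0.860 and 1.33 CPM in DMSO libraries (log2 fold change 4.11, adjusted p = 2.66e-06). The fibroblast markers Pdgfrb, Dcn and Thy1, the last also a thymocyte marker, were lower with WM-3835, at -1.09, -1.10 and -3.79 log2. Cd68, a macrophage marker, was higher there, at 1.04. In the KO, the fibroblast markers Col1a1, Dcn, Lum and Thy1 were called lower, at -1.15, -1.79, -2.36 and -3.02 log2. Of the macrophage markers, Lyz2 was called lower in the KO, at -0.98, and Cd68 higher, at 0.66. The part of cycling, of TEC subsets or of other cells in the replication genes' levels was not tested.

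At the origin itself, Orc2 was the member of the recognition complex that rose in the KO and Orc6 the one that rose with WM-3835. Orc2, a core subunit, was at 32.5, 37.5 and 36.2 CPM in KO libraries, against 29.5, 23.5 and 25.5 CPM in control libraries (log2 fold change 0.44, SE 0.12, adjusted p = 0.0173). It was at 35.0, 35.0 and 31.8 CPM with WM-3835 and 34.0, 33.0 and 37.4 CPM in DMSO libraries (log2 fold change -0.04, SE 0.11, adjusted p = 0.896). The KO call of Orc2 was lost in 5 of 23 alternatives, among them without KO replicate 2 (adjusted p = 0.0587). Every KO library was above every control library, whereas the WM-3835 and DMSO libraries overlapped, and control libraries were the low group of the 4. Orc6, a small peripheral subunit, was at 28.0, 25.7 and 31.9 CPM with WM-3835, against 20.04, 24.3 and 20.3 CPM in DMSO libraries (log2 fold change 0.40, SE 0.14, adjusted p = 0.0493). This was the call nearest to the threshold, and Orc6 lost it in 14 of the 21 alternative analyses. Orc1, the subunit known to bind KAT7, was at 1.28, 4.46 and 4.06 CPM with WM-3835 and 3.41, 3.48 and 3.58 CPM in DMSO libraries (log2 fold change -0.10, SE 0.47, adjusted p = 0.933). In KO libraries it was at 1.74, 2.61 and 1.43 CPM, against 1.89, 3.34 and 1.20 CPM in control libraries (log2 fold change -0.16, SE 0.48, adjusted p = 0.87). Both pairs of groups overlapped, and the 95% interval of Orc1 with WM-3835 ran from -1.09 to 0.89, so changes within that range are not excluded. Orc1 had 41 to 177 counts per library. Its coefficient of variation in WM-3835 libraries, at 57, 171 and 117 counts, was 53.1%, the highest of any member there. Orc3, Orc4 and Orc5, the remaining subunits, were not called in either comparison, at 0.06 to 0.10 in the KO and -0.30 to 0.15 with WM-3835 on the log2 scale. Over all GENCODE M21 transcripts, exons of Orc2 share 29.8% of their bases with Nif3l1 on the opposite strand. Those of Orc6 share 6.93% with Vps35, also on the opposite strand. These pooled exons, of 3857 and 2469 bases, exceed the deposited gene lengths of 3371 and 1654 bases. The kit does not mark strand, so counts of Orc2 and Orc6 may hold reads of those genes. Exons of 13 members share bases with a gene on the opposite strand, and the same limit holds for each. Besides members whose shares are given elsewhere, they include Rfc2 (15.1%, Lat2), Rfc4 (12.7%, Eif4a2) and Rfc5 (10.7%, Wsb2). Mcm7 (7.25%, Ap4m1) and Lig1 (5.79%, Zswim9) are also among them.

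Of the loading factors, Cdt1 rose with WM-3835. Cdt1, the loader that brings MCM2-7 to origins, was at 27.9, 25.8 and 28.7 CPM with WM-3835, against 18.0, 17.2 and 14.7 CPM in DMSO libraries (log2 fold change 0.72, SE 0.16, adjusted p = 0.00387). The WM-3835 libraries were all above the DMSO libraries. In KO libraries Cdt1 was at 19.4, 20.2 and 15.6 CPM, against 17.7, 15.51 and 11.4 CPM in control libraries (log2 fold change 0.30, SE 0.16, adjusted p = 0.245), and the groups overlapped. Cdc6, the ATPase that works with CDT1, was at 4.81, 6.13 and 6.63 CPM with WM-3835, against 4.45, 3.70 and 4.35 CPM in DMSO libraries (log2 fold change 0.49, SE 0.31, adjusted p = 0.317), without overlap but also without a call. In KO libraries Cdc6 was at 3.77, 3.57 and 6.85 CPM, against 2.91, 5.05 and 4.54 CPM in control libraries (log2 fold change 0.18, SE 0.31, adjusted p = 0.751). Gmnn encodes geminin, the inhibitor of CDT1, and was at 9.56, 11.01 and 10.6 CPM with WM-3835, against 8.27, 7.11 and 9.13 CPM in DMSO libraries (log2 fold change 0.34, SE 0.19, adjusted p = 0.234). For Gmnn, KO libraries were at 7.69, 10.5 and 9.25 CPM, against 9.87, 9.11 and 9.43 CPM in control libraries (log2 fold change -0.05, SE 0.19, adjusted p = 0.883). No call was made for Cdc6 or Gmnn, whose WM-3835 libraries lay above the DMSO libraries and whose KO and control libraries overlapped.

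All 6 subunits of the MCM2-7 helicase rose with WM-3835 and none was called in the KO. Their summed level was 380 ± 20.4 CPM with WM-3835 and 256 ± 10.7 CPM in DMSO libraries (SD, n = 3 each), and 272 ± 30.6 CPM in KO and 255 ± 7.64 CPM in control libraries. Mcm2 was at 46.1, 54.4 and 47.6 CPM with WM-3835, against 34.4, 30.6 and 36.0 CPM in DMSO libraries (log2 fold change 0.55, SE 0.12, adjusted p = 0.00341). Mcm3 was at 51.8, 55.4 and 52.8 CPM with WM-3835, against 33.2, 37.9 and 33.8 CPM in DMSO libraries (log2 fold change 0.61, SE 0.11, adjusted p = 0.000766). No WM-3835 library of either gene reached down to the DMSO libraries. Mcm4 was at 73.9, 79.6 and 59.9 CPM with WM-3835, against 49.8, 48.5 and 43.0 CPM in DMSO libraries (log2 fold change 0.60, SE 0.12, adjusted p = 0.00124). Mcm5 was at 45.8, 55.7 and 46.9 CPM with WM-3835, against 30.7, 31.7 and 28.1 CPM in DMSO libraries (log2 fold change 0.71, SE 0.12, adjusted p = 0.000248). Replicate 2 was the highest WM-3835 library for Mcm2 to Mcm6. Mcm6 was at 85.2, 91.0 and 83.8 CPM with WM-3835, against 56.9, 60.6 and 51.05 CPM in DMSO libraries (log2 fold change 0.63, SE 0.11, adjusted p = 0.000671). Mcm7 was at 69.8, 67.0 and 73.1 CPM with WM-3835, against 55.9, 54.8 and 52.2 CPM in DMSO libraries (log2 fold change 0.37, SE 0.11, adjusted p = 0.0247). Mcm7 had the smallest change of the 6, and lost its call in 5 of 21 alternatives, without any 1 DMSO library or WM-3835 replicate 1 or 3 (0.0558 to 0.107), while the other 5 kept theirs in all 21.

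In the KO, the helicase subunits did not move together beyond their spread. Mcm2, Mcm3, Mcm4, Mcm5 and Mcm7 were at 0.17 to 0.26 on the log2 scale against control, and Mcm6 was at -0.29, with adjusted p of 0.097 to 0.381. Mcm5 was at 31.2, 35.1 and 35.6 CPM in KO libraries, against 25.0, 30.5 and 29.7 CPM in control libraries (log2 fold change 0.26, SE 0.12, adjusted p = 0.162), and these did not overlap. Mcm6 was at 48.3, 48.8 and 65.5 CPM in KO libraries, against 59.7, 66.4 and 73.2 CPM in control libraries (log2 fold change -0.29, SE 0.11, adjusted p = 0.097). Only KO library 3 overlapped the controls for Mcm6, and without KO replicate 3 the adjusted p was 0.0146 at -0.44, so KO library 3 decides this call. With KO replicate 3 as the only KO library, the one whose Xist level is like the controls', the Mcm6 log2 fold change was 0.03.

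**Figure D4:**
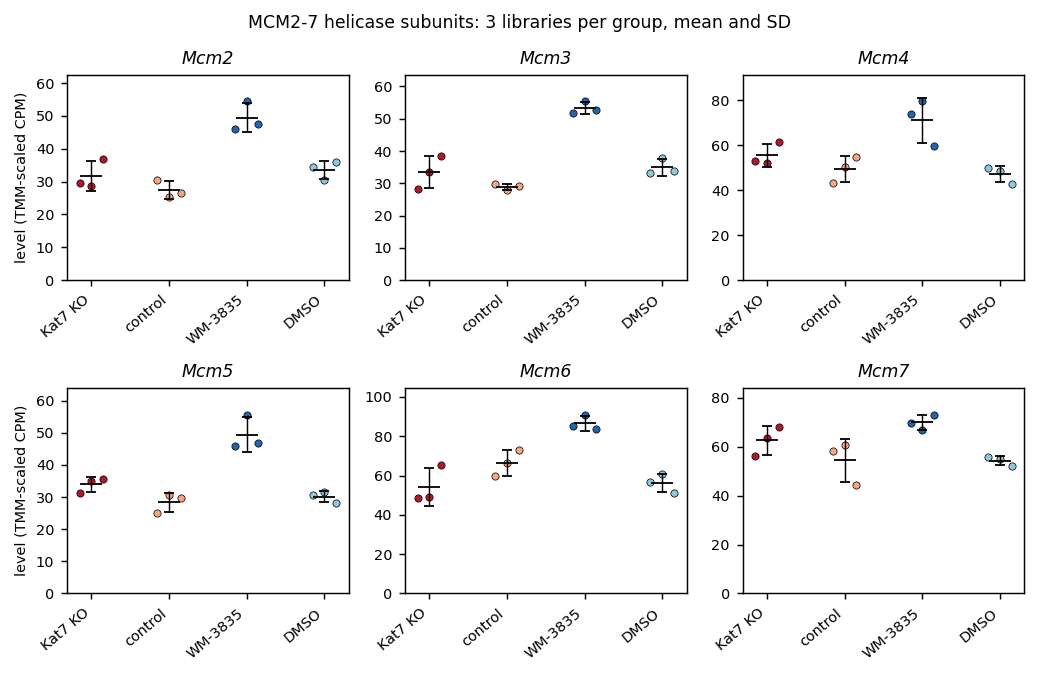
Level in CPM of the 6 MCM2-7 subunits in each library (points), with the mean and SD of each group of 3. All WM-3835 libraries lie above all DMSO libraries for every subunit, and KO and control libraries overlap for every subunit but Mcm5.

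Of the other MCM proteins, Mcm10, which links the helicase to polymerase alpha, was at 8.17, 10.1 and 6.21 CPM with WM-3835, against 6.11, 6.70 and 5.196 CPM in DMSO libraries (log2 fold change 0.45, SE 0.25, adjusted p = 0.24). Mcm10 was at 5.29, 7.91 and 6.64 CPM in KO libraries, against 6.03, 7.57 and 8.88 CPM in control libraries (log2 fold change -0.18, SE 0.25, adjusted p = 0.686), and both pairs overlapped. Mcm8, a helicase of recombination and repair, was at 0.26 and 0.24 log2 in the KO and with WM-3835. Neither gene was called in either comparison.

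Among the factors that turn the loaded ring into a working helicase, none passed the test in either comparison on its own, but Cdc45 differed between them. Cdc45, which joins MCM2-7 with GINS, was at 5.76, 6.44 and 6.88 CPM in KO libraries, against 6.32, 11.4 and 13.2 CPM in control libraries (log2 fold change -0.69, SE 0.23, adjusted p = 0.0526). It was at 11.9, 12.02 and 12.6 CPM with WM-3835, against 7.38, 8.15 and 8.89 CPM in DMSO libraries (log2 fold change 0.58, SE 0.23, adjusted p = 0.0886). The WM-3835 and DMSO libraries did not overlap, and control library 1, at 6.32 CPM, lay within the KO range. Cdc45 was the member nearest to a call in the KO and was called lower there by DESeq2 (adjusted p = 0.0348), without control replicate 1 (0.00409) and with a filter of CPM above 1 in 3 libraries (0.049). The 4 GINS genes were not called: Gins1 was at -0.51, Gins2 at -0.22, Gins3 at -0.53 and Gins4 at 0.34 log2 in the KO, and at 0.67, 0.42, -0.40 and 0.04 with WM-3835. Gins3 was the member with all KO libraries below all control libraries and all WM-3835 libraries below all DMSO libraries. Over all GENCODE M21 transcripts, exons of Gins2 share 67.3% of their bases with Gse1 on the opposite strand. Those of Cdc45 share 5.96% with Ufd1, also on the opposite strand. These pooled exons, of 4097 and 3506 bases, exceed the deposited gene lengths of 1038 and 2143 bases. The shares of the counted bases are therefore not known.

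The kinase subunit Cdc7 rose in both comparisons. Cdc7 was at 10.2, 11.7 and 14.7 CPM in KO libraries, against 5.99, 6.32 and 8.71 CPM in control libraries (log2 fold change 0.80, SE 0.20, adjusted p = 0.0118). It was at 18.6, 15.52 and 14.3 CPM with WM-3835, against 11.1, 9.31 and 11.2 CPM in DMSO libraries (log2 fold change 0.62, SE 0.20, adjusted p = 0.0347). Neither pair of groups overlapped, and DMSO libraries were themselves above control libraries (log2 fold change 0.59, adjusted p = 0.0362). The KO call was lost in 3 of 23 alternatives: without KO replicate 3 (adjusted p = 0.0593), on the 6 libraries of these groups (0.0866) and with quality weights (0.112). The WM-3835 call was lost in 7 of 21, with upper-quartile scaling (0.0546), with no filter on low counts (0.0524) and without any 1 DMSO library or WM-3835 replicate 1 or 2 (0.0722 to 0.178). The call of DMSO over control was lost in 6 of 21. Dbf4, the regulatory subunit that activates CDC7, was at -0.10 log2 in the KO and -0.30 with WM-3835, and was not called in either.

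Of the clamp and its loader, Pcna rose with WM-3835. Pcna was at 52.7, 55.1 and 58.4 CPM with WM-3835, against 44.9, 43.5 and 44.4 CPM in DMSO libraries (log2 fold change 0.32, SE 0.10, adjusted p = 0.0252). The DMSO libraries lay close together and all below the WM-3835 libraries. The call was lost in 7 of 21 alternatives: with upper-quartile scaling (0.0599), with no filter (0.0521) and without any 1 DMSO library or WM-3835 replicate 2 or 3 (0.071 to 0.123). Pcna was at 42.1, 44.4 and 42.2 CPM in KO libraries, against 43.3, 36.6 and 45.2 CPM in control libraries (log2 fold change 0.04, SE 0.10, adjusted p = 0.834), and these overlapped. The 5 loader subunits were not called, at -0.17 to 0.15 log2 in the KO and 0.09 to 0.38 with WM-3835. Rfc5 was the member nearest to the threshold from outside with WM-3835 (0.38, adjusted p = 0.0556), beside Orc6 just inside it.

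Subunits of the polymerase that starts DNA chains rose with WM-3835. Prim1, the catalytic primase subunit, was at 15.0, 16.3 and 17.9 CPM with WM-3835, against 9.98, 9.35 and 7.51 CPM in DMSO libraries (log2 fold change 0.87, SE 0.18, adjusted p = 0.00225). That was the largest fold among the 51 members in this comparison. Pola2, the regulatory subunit of polymerase alpha, was at 43.3, 45.5 and 38.9 CPM with WM-3835, against 32.8, 36.2 and 30.1 CPM in DMSO libraries (log2 fold change 0.37, SE 0.11, adjusted p = 0.0307). Both genes had every WM-3835 library above every DMSO library, and Pola2 lost its call in 5 of 21 alternatives, with upper-quartile scaling (0.064) and without DMSO replicate 1 or 3 or WM-3835 replicate 1 or 2 (0.0945 to 0.163). Prim1 was at 9.34, 11.8 and 13.5 CPM in KO libraries, against 12.6, 11.9 and 15.501 CPM in control libraries (log2 fold change -0.21, SE 0.18, adjusted p = 0.504). Pola2 was at 38.0, 30.0 and 37.0 CPM in KO libraries, against 39.6, 40.2 and 42.0 CPM in control libraries (log2 fold change -0.21, SE 0.11, adjusted p = 0.242). For Pola2 all KO libraries lay below all control libraries, and for Prim1 they overlapped. Pola1, the catalytic subunit, and Prim2, the large primase subunit, were not called, at -0.14 and -0.01 log2 in the KO and 0.39 and 0.34 with WM-3835.

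Of the polymerases that extend the chains, Pold1 rose with WM-3835. Pold1 was at 117, 123 and 116 CPM with WM-3835, against 86.7, 83.0 and 98.4 CPM in DMSO libraries (log2 fold change 0.41, SE 0.08, adjusted p = 0.00127). Pold1 was at 78.5, 84.2 and 82.7 CPM in KO libraries, against 68.1, 73.3 and 68.8 CPM in control libraries (log2 fold change 0.22, SE 0.08, adjusted p = 0.0716). Neither pair of groups overlapped, and the WM-3835 libraries were the highest of all 12. Pold2, Pold3, Pole and Pole2, further subunits of polymerases delta and epsilon, were not called, at -0.17 to 0.02 log2 in the KO and 0.09 to 0.59 with WM-3835. Pole had the widest spread of any member in the controls, at 11.2, 5.08 and 21.2 CPM, a coefficient of variation of 65.1%.

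No gene of replication protein A, which coats single-stranded DNA, was called by the edgeR test in the KO or with WM-3835. Rpa3 was at 11.7, 11.2 and 11.1 CPM in KO libraries, against 6.65, 6.80 and 9.74 CPM in control libraries (log2 fold change 0.55, SE 0.19, adjusted p = 0.0556). It was at 14.5, 13.9 and 12.8 CPM with WM-3835, against 9.02, 9.54 and 11.5 CPM in DMSO libraries (log2 fold change 0.46, SE 0.18, adjusted p = 0.0969). Neither pair overlapped, and the first was just outside the threshold, as was Rpa2 in the KO (0.43, adjusted p = 0.061). Rpa1 was at -0.06 log2 in the KO and -0.16 with WM-3835.

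On the lagging strand, Lig1, the ligase that joins Okazaki fragments, was the member with the smallest adjusted p with WM-3835. Lig1 was at 69.2, 70.6 and 70.3 CPM with WM-3835, against 41.2, 42.5 and 42.6 CPM in DMSO libraries (log2 fold change 0.73, SE 0.12, adjusted p = 0.000184). Both groups were tight and far apart. Lig1 was at 57.6, 44.5 and 57.5 CPM in KO libraries, against 49.0, 67.7 and 59.7 CPM in control libraries (log2 fold change -0.14, SE 0.12, adjusted p = 0.464), with overlap. Fen1, the flap endonuclease, was at -0.06 log2 in the KO and 0.26 with WM-3835, and was not called.

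The ribonucleotide reductase genes, which make deoxynucleotides, rose with WM-3835. Rrm1, the large subunit, was at 68.0, 75.5 and 72.8 CPM with WM-3835, against 54.5, 48.4 and 53.6 CPM in DMSO libraries (log2 fold change 0.47, SE 0.13, adjusted p = 0.0138). Rrm2, the small subunit made in S phase, was at 26.9, 26.4 and 25.9 CPM with WM-3835, against 14.9, 15.1 and 14.5 CPM in DMSO libraries (log2 fold change 0.83, SE 0.23, adjusted p = 0.0155). Neither gene's groups overlapped. The Rrm1 call was lost without DMSO replicate 2 (0.0713) or WM-3835 replicate 2 (0.0535), and the Rrm2 call without DMSO replicate 3 (0.0575). Rrm1 was at 45.3, 65.1 and 61.3 CPM in KO libraries, against 61.8, 57.7 and 77.4 CPM in control libraries (log2 fold change -0.20, SE 0.13, adjusted p = 0.333). Rrm2 was at 14.3, 27.1 and 21.3 CPM in KO libraries, against 12.9, 16.3 and 27.4 CPM in control libraries (log2 fold change 0.15, SE 0.23, adjusted p = 0.728). KO and control libraries overlapped for both genes. Tyms and Tk1, which supply thymidylate by synthesis and by salvage, were at -0.49 and 0.13 log2 in the KO and 0.31 and 0.01 with WM-3835, without a call.

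Behind the fork, both large subunits of chromatin assembly factor 1 rose with WM-3835, and Uhrf1 fell in the KO. Chaf1a was at 31.0, 29.5 and 28.4 CPM with WM-3835, against 20.8, 22.1 and 20.9 CPM in DMSO libraries (log2 fold change 0.48, SE 0.16, adjusted p = 0.0394). Chaf1b was at 10.2, 12.2 and 10.6 CPM with WM-3835, against 6.34, 5.69 and 6.32 CPM in DMSO libraries (log2 fold change 0.85, SE 0.25, adjusted p = 0.0245). All WM-3835 libraries were above the DMSO libraries for both, and neither was called in the KO (0.08 and 0.25). Without any 1 of the 6 WM-3835 and DMSO libraries both calls were lost (adjusted p = 0.0785 to 0.133 for Chaf1a and 0.0527 to 0.0989 for Chaf1b), and Chaf1a lost its call with upper-quartile scaling too (0.0712). Over all GENCODE M21 transcripts, exons of Chaf1a share 52.5% of their bases with Ubxn6 on the opposite strand. These pooled exons, of 8854 bases, exceed the deposited gene length of 3308 bases. The share of the counted bases is therefore not known. Uhrf1, which reads hemimethylated DNA and brings DNMT1 to it, was at 41.0, 43.6 and 38.0 CPM in KO libraries, against 48.9, 52.4 and 69.1 CPM in control libraries (log2 fold change -0.47, SE 0.12, adjusted p = 0.0134). It was at 63.6, 64.4 and 61.7 CPM with WM-3835, against 49.5, 62.0 and 53.8 CPM in DMSO libraries (log2 fold change 0.20, SE 0.12, adjusted p = 0.285). The KO libraries were all below the controls, while WM-3835 and DMSO libraries overlapped. The KO call was lost without control replicate 3 or KO replicate 3 (adjusted p = 0.0634 in each) and with the Xist level as a covariate (0.127), among 6 of 23 alternatives.

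The KO and inhibitor effects share no library, so their difference was tested directly as the KO effect minus the WM-3835 effect. It was lower for 7 members and higher for none, where 5.69% of all genes tested were lower and 4.41% higher. At an unadjusted p under 0.05 the edgeR test had 13 members lower and 1 higher, beside 2321 lower and 2046 higher of all 18670. Among the members limma-voom called 0 higher, and DESeq2 called 1 higher, Orc2. The 7 were Mcm6 (-0.92, SE 0.16, adjusted p = 0.000972), Lig1 (-0.88, SE 0.16, adjusted p = 0.00165), Prim1 (-1.08, SE 0.26, adjusted p = 0.0106), Uhrf1 (-0.67, SE 0.17, adjusted p = 0.0145), Cdc45 (-1.27, SE 0.32, adjusted p = 0.0157), Rrm1 (-0.66, SE 0.18, adjusted p = 0.0217) and Pola2 (-0.58, SE 0.16, adjusted p = 0.0269). Of these, 5 rose with WM-3835 and the others, Cdc45 and Uhrf1, did not pass there. Each of the 7 had a KO log2 fold change below 0 and a WM-3835 one above 0. The count was 4 without DMSO replicate 1, 1 (Lig1) with KO replicate 3 as the only KO library, and 0 with the Xist level as a covariate; 1 was higher without control replicate 1 or control replicate 3. The median difference over the 51 members was -0.31, beside -0.000752 over all genes tested.

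**Figure D5:**
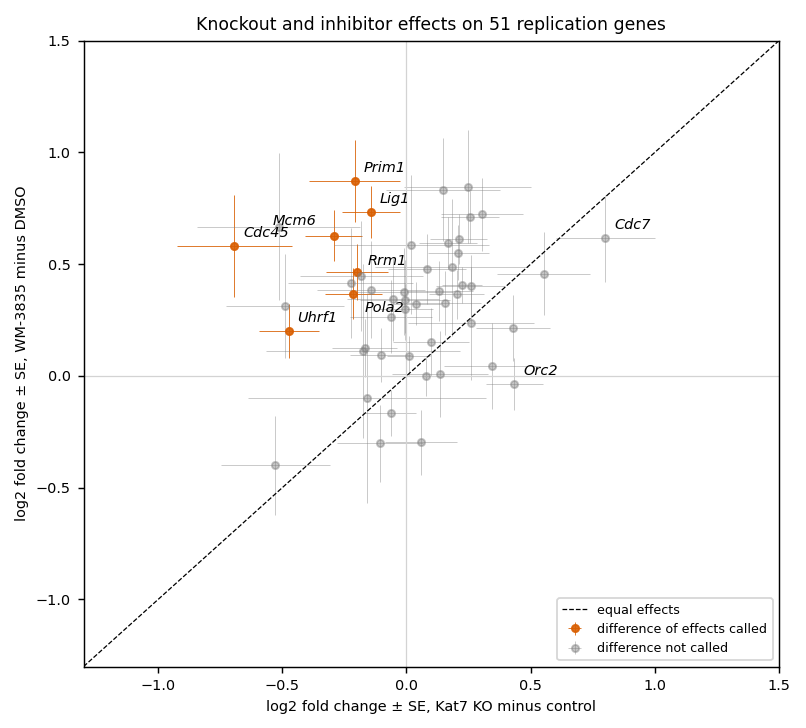
Log2 fold change with SE of each member in Kat7 KO minus control (horizontal) and WM-3835 minus DMSO (vertical); the dashed line marks equal effects, and orange points are the 7 members whose effects differ by the test. All 7 lie left of 0 and above 0, and Cdc7 lies near the line, high on both axes.

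The DMSO and control cultures differed from each other as well. They differ in treatment, the genotype of the control cultures is not given, and Xist was at 1382 to 1898 CPM in DMSO libraries against 2.34 to 3.17 CPM in control libraries (log2 fold change 9.23), so these cannot be told apart. With DMSO against control, 4 members were higher (Orc2, Cdc7, Pold1 and Rpa2) and 3 lower (Prim1, Pold3 and Lig1), where 11.4% of all genes tested were higher and 13.3% lower (24.6% in either direction). The log2 fold change of DMSO over control was -0.48 for Lig1 (adjusted p = 0.00483) and -0.57 for Prim1 (adjusted p = 0.0283). Both are among the 7 members whose effects differed, and this comparison shares its libraries with both effects. The counts were 2 higher without DMSO replicate 1 or DMSO replicate 3, and 1 lower without control replicate 3 or DMSO replicate 3.

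Replication genes outside the 51 were counted from 4 further lists. With WM-3835, 5 of 26 cofactors of origin firing and the fork rose (19.2%) and 1 fell, where 9.34% of all genes tested rose and 9.35% fell, and the list's median log2 fold change was 0.26, beside -0.01 over all genes. Those with the smallest adjusted p were Dnmt1, the maintenance DNA methyltransferase, at 194 ± 3.60 CPM with WM-3835 and 133 ± 6.27 CPM in DMSO libraries (SD, n = 3 each; log2 fold change 0.55, SE 0.08, adjusted p = 5.43e-05), Topbp1, which helps load CDC45, at 0.29 log2, Top1, topoisomerase I, at 0.24, and Asf1a, a histone chaperone, at -0.39. Lrwd1 and Chtf18 were the others that rose, with calls lost in 8 and 13 of 21 alternatives. In the KO 1 of the 26 rose (3.85%, beside 6.12% of all genes tested), Topbp1, at 70.6 ± 4.69 CPM in KO and 55.4 ± 2.45 CPM in control libraries (SD, n = 3 each; log2 fold change 0.35, SE 0.08, adjusted p = 0.0081), and none fell. That call was lost on the 6 libraries of these groups (0.079) and with quality weights (0.0623). At an unadjusted p under 0.05 the edgeR test had 4 of the 26 higher and 3 lower in the KO. Of all 18670 genes it had 2435 higher and 2734 lower there.

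Of 12 further genes of nucleotide supply, Samhd1, which breaks down deoxynucleotides, rose with WM-3835 to 130.1 ± 11.7 CPM, against 73.8 ± 0.934 CPM in DMSO libraries (SD, n = 3 each; log2 fold change 0.82, SE 0.09, adjusted p = 5.48e-06). Ctps, which makes CTP, fell to 36.7 ± 4.26 CPM with WM-3835, against 61.3 ± 2.33 CPM in DMSO libraries (SD, n = 3 each; log2 fold change -0.74, SE 0.13, adjusted p = 0.000654). So 1 of the 12 rose (8.33%) and 1 fell with WM-3835, where 9.34% of all genes tested rose and 9.35% fell. None of the 12 was called in the KO, where 6.12% of all genes tested rose and 8.06% fell. There the edgeR test had 0 of the 12 at an unadjusted p under 0.05, beside 2435 higher and 2734 lower of all 18670.

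Among 18 E2F and RB factors and S-phase kinases, 2 rose (11.1%) and 4 fell with WM-3835, where 9.34% of all genes tested rose and 9.35% fell. Tfdp1, whose product pairs with E2F proteins, fell to 64.3 ± 1.17 CPM with WM-3835, against 87.9 ± 5.96 CPM in DMSO libraries (SD, n = 3 each; log2 fold change -0.45, SE 0.08, adjusted p = 0.000816). Its relative Tfdp2 was at -0.43 log2 and Rb1, the retinoblastoma gene, at -0.27, while Rbl2, another pocket protein gene, was at 0.36. The last of the 6 were E2f1, an activating E2F that rose (0.65), and E2f2, which fell (-0.60), each with its call lost in 7 of 21 alternatives. In the KO 3 of the 18 rose (16.7%, beside 6.12% of all genes tested): Rbl2 at 0.36 log2 (adjusted p = 0.00664), E2f3 at 0.59 (0.00887) and Ccne2, cyclin E2, at 1.23 (0.0462), a call lost in 16 of 23 alternatives, also without any 1 of the 3 KO libraries (0.0648 to 0.103). On the 6 libraries of these groups the calls of Rbl2 (0.0604) and E2f3 (0.0554) were lost too, Rbl2 also with quality weights (0.0514) and E2f3 without KO replicate 3 (0.0505). Of 11 replication checkpoint genes, 4 rose with WM-3835 (36.4%) and none fell, led by Timeless, of the fork protection complex, at 25.3 ± 2.06 CPM with WM-3835 and 14.9 ± 2.00 CPM in DMSO libraries (SD, n = 3 each; log2 fold change 0.76, SE 0.17, adjusted p = 0.00426). The others were Etaa1, an activator of ATR, at 0.58 log2, Hus1, of the checkpoint clamp, at 0.44, and Rad17, its loader, at 0.30, with calls lost in 3, 4 and 12 of 21 alternatives. In the KO, Atr, the checkpoint kinase, rose by 0.35 log2 (adjusted p = 0.0145), a call lost in 4 of 23 alternatives.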

How the data were processed

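Libraries were made with TruSeq RNA v2 from sorted TECs and read as 75-base pairs, per the labels' protocols. The authors counted with featureCounts on mm10, per the submitters' processing notes, and deposited raw counts per gene. Per the file headers, each deposited file also gives a gene length in bases (other unit), used here for CPM per kb. Aligner, annotation and strand setting: not given in the sources used here. Of 27179 genes, the 1312 without a symbol held 0.657% to 0.743% of counts and were left out. Total counts were 26656847 to 52368012 per library. Squared deviations between replicates were 8.57 to 51.2 times those of counting error, so no pair was treated as 1 library.

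Counts were analysed in R 4.3.3 with edgeR 4.0.16: filterByExpr, TMM scaling, 4 group means over 12 libraries and the two-sided quasi-likelihood test, with Benjamini-Hochberg adjustment over 18670 genes and calls at an adjusted p under 0.05. Contrasts were KO minus control, WM-3835 minus DMSO, the difference of these effects, and DMSO minus control. CPM are TMM-scaled, and SE is the log2 fold change over the square root of F. The fit was also run on simulated counts with 200 genes changed by known folds. Each simulated gene had the same spread in all groups, so that run does not check the unequal spread of these groups. Alternatives were other scalings, filters, library sets, a replicate block, limma 3.58.1 and DESeq2 1.42.0. The members and lists were chosen with earlier results of these data known. Values in every library are given for members called in any of the first 3 contrasts, for Orc1, Cdc6, Cdt1, Gmnn and Mcm2, and for the member with the smallest adjusted p with WM-3835 in any other role. From each further list, up to 4 called genes by adjusted p are named; genes that complete a count were named after their values were seen, as were Mki67 and Xist. Hbb-bt, a red cell marker, had no symbol in the tables. Promoters of 8 members (Rfc2, Gmnn, Gins1, Gins2, Mcm4, Prim2, Gins4 and Pole) were not analysed here. Red cell markers summed to at most 3.01 CPM, endothelial markers to at most 2.56 CPM and macrophage and dendritic cell markers to 41.9 to 108 CPM per library.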

Additional observations from a re-analysis of the deposited data

Results flagged for a closer look

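The effect of Kat7 deletion and the effect of WM-3835 differed, by the edgeR test of the difference itself (KO effect minus WM-3835 effect, Benjamini-Hochberg over all genes tested), for these genes, each with its KO effect given before its WM-3835 effect on the log2 scale. Mcm6, a helicase subunit, had effects of -0.29 and 0.63 and a difference of -0.92 (adjusted p = 0.000972, call lost in 2 of 22 alternatives). The effects on Cdc45, a helicase partner, were -0.69 and 0.58, and differed by -1.27 (adjusted p = 0.0157, call lost in 3 of 22 alternatives). For Pola2, a polymerase alpha subunit, effects of -0.21 and 0.37 differed by -0.58 (adjusted p = 0.0269, call lost in 7 of 22 alternatives). Prim1, a primase subunit, had effects of -0.21 and 0.87 and a difference of -1.08 (adjusted p = 0.0106, call lost in 2 of 22 alternatives). The effects on Lig1, the fragment ligase, were -0.14 and 0.73, and differed by -0.88 (adjusted p = 0.00165, call lost in 1 of 22 alternatives). For Rrm1, a ribonucleotide reductase subunit, effects of -0.20 and 0.47 differed by -0.66 (adjusted p = 0.0217, call lost in 6 of 22 alternatives). Uhrf1, the reader of hemimethylated DNA, had effects of -0.47 and 0.20 and a difference of -0.67 (adjusted p = 0.0145, call lost in 3 of 22 alternatives). The effects on Pclaf, a PCNA-binding factor, were -0.63 and 0.49, and differed by -1.12 (adjusted p = 0.0292, call lost in 10 of 22 alternatives). For Dnmt1, the maintenance methyltransferase, effects of -0.21 and 0.55 differed by -0.76 (adjusted p = 0.000164, call lost in 0 of 22 alternatives). Samhd1, which breaks down deoxynucleotides, had effects of -0.10 and 0.82 and a difference of -0.92 (adjusted p = 0.000144, call lost in 0 of 22 alternatives). The effects on Ctps, a CTP synthase, were -0.10 and -0.74, and differed by 0.65 (adjusted p = 0.0371, call lost in 9 of 22 alternatives). For Tfdp1, an E2F partner, effects of -0.05 and -0.45 differed by 0.39 (adjusted p = 0.0397, call lost in 11 of 22 alternatives). Tfdp2, another E2F partner, had effects of 0.15 and -0.43 and a difference of 0.58 (adjusted p = 0.0294, call lost in 7 of 22 alternatives). The effects on Timeless, of the fork protection complex, were -0.26 and 0.76, and differed by -1.02 (adjusted p = 0.0111, call lost in 2 of 22 alternatives). DMSO and control cultures differ in treatment, and Xist separated all DMSO libraries (1382 to 1898 CPM) from all control libraries (2.34 to 3.17 CPM). With the Xist level as a covariate, Dnmt1 and Samhd1 kept their calls and the other 12 genes, all 7 members among them, lost theirs. Only KO library 3 (4.94 CPM) breaks the split in Xist between KO and control libraries. The covariate fit therefore cannot separate Xist from the KO effect, and its losses do not tell what Xist accounts for.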

How the results depend on the processing

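Over 23 alternatives, 6786 gene values were recomputed: 6394 kept their side of the threshold, 288 lost a call and 104 gained one. No value with a call in either fit changed sign. Values without a call could change sign and still count among the 6394. Of 696 counts over the further lists, 118 moved by over 1.5 times. In the KO, 2 members rose and 1 fell; the counts were 4 and 2 with DESeq2, 0 and 0 with quality weights per group, 0 and 0 with the 6 libraries of the groups compared, 1 and 0 with KO replicate 3 as the only KO library, 1 and 0 with Xist as a covariate, and 2 fell with CPM above 1 in 3 libraries. With WM-3835, 18 rose and none fell, and quality weights gave 30 and 2. The 6 libraries gave 1 that fell (Orc4). In that fit Cdc45, Rfc5, Pola1, Prim2, Pold3, Pole and Rpa3 also gained a call as higher. In the difference, 0 were higher and 7 lower; DESeq2 gave 1 higher, KO replicate 3 alone 1 lower and the Xist covariate 0 lower. With DMSO against control, 4 were higher and 3 lower; DESeq2 and CPM above 1 gave 5 lower, and quality weights and the 6 libraries gave 2 higher. The fits on fewer libraries have fewer degrees of freedom, yet the 6 libraries of WM-3835 and DMSO gave more member calls. The biological coefficient of variation was 0.294 in KO, 0.47 in control, 0.125 in WM-3835 and 0.103 in DMSO libraries. The part of this spread or of other causes was not tested. Leaving out 1 library at a time gave 1 to 4 higher and 0 to 2 lower in the KO, 10 to 21 higher and 0 to 0 lower with WM-3835, 0 to 1 higher and 4 to 8 lower in the difference, and 2 to 6 higher and 1 to 4 lower with DMSO against control; the lone KO library was assumed to vary like the other groups. Deviations from the group means showed no strong pairing by replicate number. Those of same-numbered libraries correlated at 0.00218 to 0.00918 between KO and control and at 0.00317 to 0.058 between WM-3835 and DMSO. WM-3835 replicate 3, DMSO replicate 3 and control replicate 2 correlated better with another number than with their own. All same-numbered correlations were positive, so this check cannot exclude a weak pairing. With the replicate block the counts were 2 and 1 in the KO, 17 and 0 with WM-3835, 0 and 7 in the difference, and 4 and 3 with DMSO against control. Other scalings shifted the median log2 fold change of all genes by at most 0.0492 in size, to lower values with WM-3835. Counts were low for Orc1, Cdc6, Gins1 and Pole2, with 41, 97, 94 and 50 in their lowest library.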
